A study of Homo sapiens with 56 samples.

Results

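The genes examined encode the signalling pathway of TGF-beta, the bone morphogenetic proteins (BMPs) and activin. The list holds 40 genes chosen by name: 14 ligands, 10 receptors, 8 SMADs, 4 secreted antagonists and the 4 ID genes. Of these, 39 were measured among 18377 genes, and the receptor BMPR1A was not analysed here. Levels were read from 56 Affymetrix Human Gene ST arrays from 28 established lines of human ovarian cancer, each hybridised to 2 arrays. No line was treated or transfected, so each line is its own group and the other lines are what it was set against. The lines were A2780, CAOV3, CH1, COLO720E, DOV13, EFO21, FUOV1, HEY, HEYC2, JHOS2, JHOS3, JHOS4 (written JHSO4 in the label of 1 array), OAW28, OAW42, OV17R, OV56, OV7, OVCA420, OVCA432, OVCA433, OVCAR2, OVCAR3, OVCAR5, PEO1, SKOV3, TOV112D, TYKNU and UWB1.289. The base medium was DMEM for 10 lines, RPMI for 9, DMEM/F12 for 7, an RPMI/MEGM mixture for UWB1.289 and an MCDB105/M199 mixture for TOV112D. Fetal bovine serum was 10% for 22 lines, 20% for EFO21 and OVCAR3, 5% for OV17R, OV56 and OV7, and 3% for UWB1.289. Those 3 lines in 5% serum also received insulin (10 µg/ml) and hydrocortisone (0.4 µg/ml for OV17R and 0.5 µg/ml for OV56 and OV7). Insulin was added for OVCAR2, OVCAR3 and OVCAR5 at 10 µg/ml and for OAW28 and OAW42 at 0.7 µg/ml. The lines are cultured cells without stroma, and HEY and HEYC2 may be related lines, going by their names.

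Ligands of this family bind a pair of type II and a pair of type I serine/threonine kinase receptors. TGF-beta, activin and nodal act mainly through SMAD2 and SMAD3, and BMPs through SMAD1, SMAD5 and SMAD9, which all join SMAD4 and enter the nucleus. SMAD6 and SMAD7 inhibit the pathway, follistatin (FST), FSTL3, gremlin (GREM1) and noggin (NOG) capture ligands outside the cell, and the ID genes are direct targets of BMP signalling in many cell types. In epithelial cells TGF-beta can arrest growth and can also drive the epithelial-mesenchymal transition (EMT).

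Values are RMA-normalised log2 intensities, so that 1 unit is a 2-fold difference in signal, and a line's level is the mean of its 2 arrays. Array medians ran from 5.96 to 6.31. In 3 arrays (HEYC2 replicate 1, OV56 replicate 2 and OVCA420 replicate 1) the SD over genes was 1.84 to 1.89, against 2.09 to 2.32 in the other arrays, and each differed from the line's other array with an SD of 1.20 to 1.63 over genes, against at most 0.388 in the other lines. In all 3 of these arrays 13 members were lower and 16 members higher than in the line's other array, and the remaining 10 went both ways. SMAD5 was lower in all 3 (median difference -2.93), as were SMAD2 (-2.60), BMPR2 (-2.57) and SMAD4 (-2.43), while INHBB (1.41), FSTL3 (1.33) and LEFTY1 (1.28) were higher. Ovarian carcinoma markers such as PAX8 and EPCAM averaged 6.97 (TOV112D) to 10.44 (PEO1) over 10 genes, with a median line at 8.49, and 5 of the 10 were called low in COLO720E. The mean of 3 leukocyte markers was 4.44 to 5.40 (median 4.74), and PTPRC exceeded 5.42, the 95th percentile of 339 olfactory receptor genes taken as a guide to silent genes, in 0 of 28 lines, CD3E in 1 and CD14 in 28. The labels leave unstated if a line's 2 arrays are separate cultures, so p-values for lines measure the spread between arrays only.

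The lines differed in 35 of 39 members (limma's moderated F test, Benjamini-Hochberg adjusted p under 0.05), where 65.7% of all genes tested did. INHA, NODAL, LEFTY1 and SMAD5 were the 4 that did not pass, and without the 3 arrays described above only NODAL did not pass (adjusted p = 0.422). Under a further quantile normalisation INHBB, LEFTY2, SMAD1 and SMAD2 did not pass either. The SD between lines had a median of 0.73 over the members and 0.42 over all genes. The range from the lowest to the highest line exceeded 2 log2 units in 30 members and 4 log2 units in 12, with a median of 2.66, while the typical difference between the 2 arrays of a line was 0.16. The share of all genes with such ranges was not computed. In SMAD2, SMAD4, SMAD5, BMPR2, ACVR2A and ID2 the lowest line held 1 of the 3 arrays described above, which read lower than the line's other array. A line was called high or low for a gene when it differed from the mean of the other 27 lines by at least 2 log2 units at an adjusted p under 0.05. Of the 39 members, 15 had at least 1 line called high (11.4% of all genes did) and 12 had at least 1 called low (8.09% of all genes did). These calls made 43 pairs of member and line on the high side (0.825% of all pairs of gene and line) and 25 on the low side (0.549%).

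**Figure D1:**
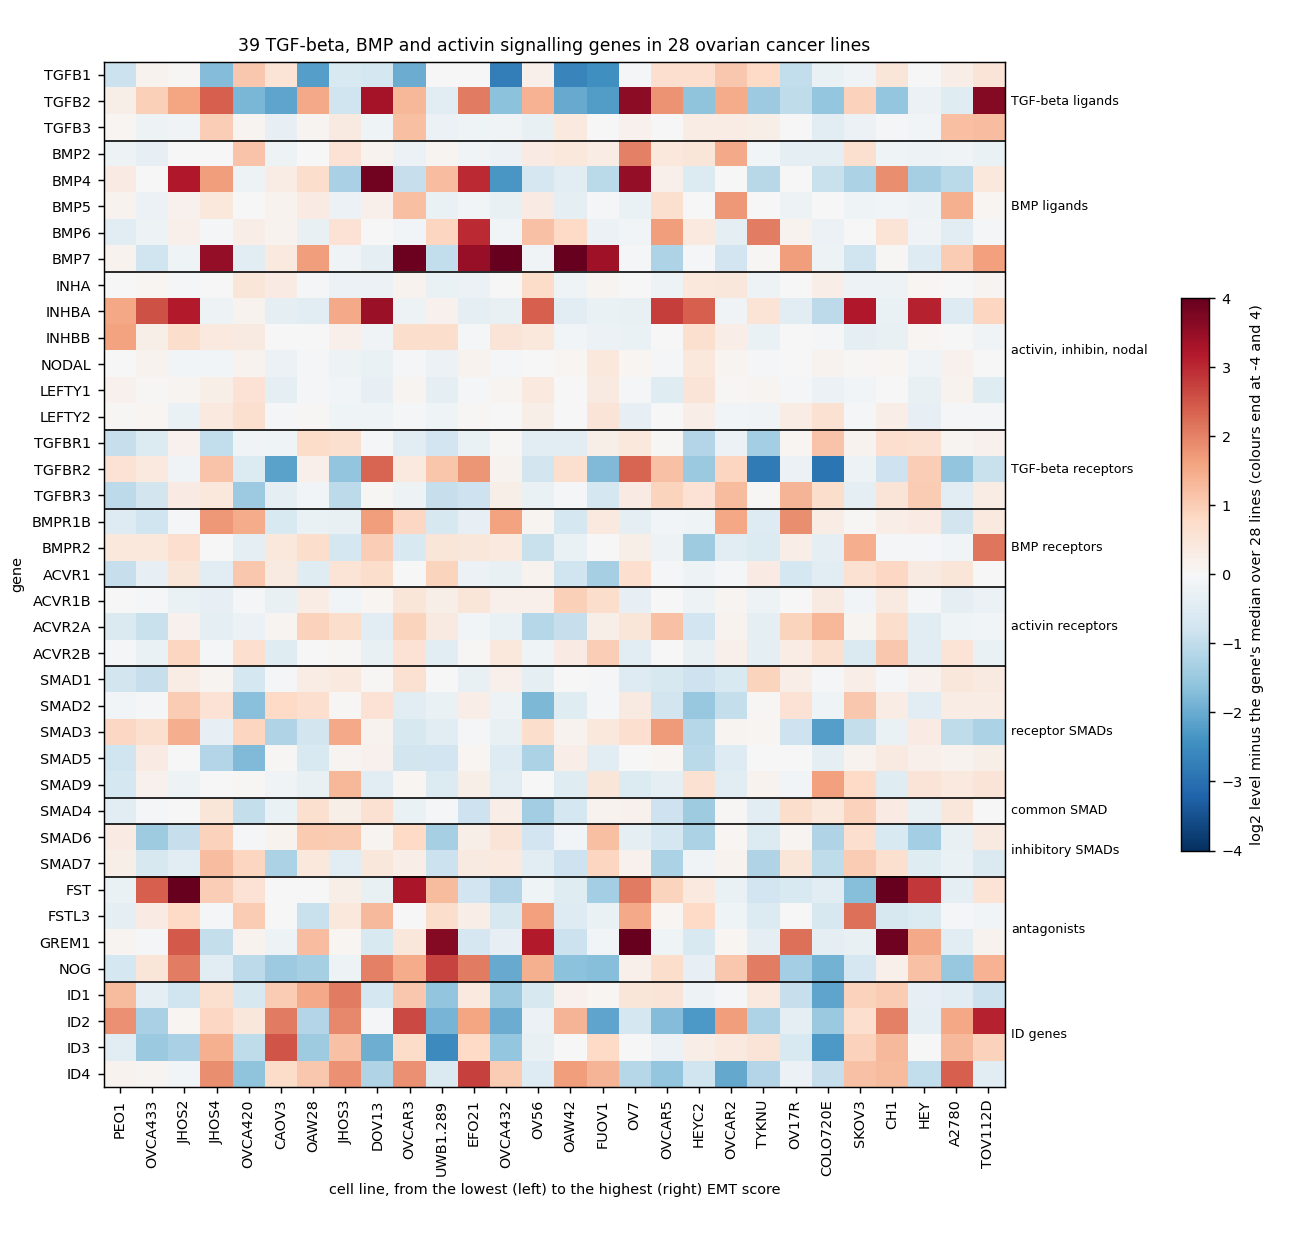
Log2 level of the 39 measured members in the 28 lines, each gene shown as the difference from its median line (colour scale in log2 units, clipped at its ends). Lines run from the lowest EMT score at the left (PEO1) to the highest at the right (TOV112D), and genes are grouped by role. FST, BMP4, TGFB2, GREM1, ID2, BMP7 and TGFBR2 have the widest ranges, and no role group shifts as a block along the axis.

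Among the TGF-beta ligands, TGFB2 varied most, with a gradual order of lines below its highest 3. TGFB2 was lowest in FUOV1 (5.11), had a median of 7.35 and reached 11.01 in TOV112D. Its 2 arrays read 10.95 and 11.06 in TOV112D, 10.83 and 11.05 in OV7, 10.69 and 10.66 in DOV13 and 9.95 and 9.54 in JHOS4, all 4 called high. EFO21 (9.43) and OVCAR5 (9.14) came next and were not called. The differences from the other lines were 3.52 in TOV112D, 3.45 in OV7, 3.18 in DOV13 and 2.22 in JHOS4 (SE 0.40 each, limma adjusted p from 3.07e-08 to 7.56e-05). CAOV3, OAW42, FUOV1 and OVCA420 were called low, but the arrays of FUOV1 disagreed (3.82 and 6.39), and so did those of OVCA420 (4.36 and 6.66). Without the 3 arrays that stood apart, OVCA420 lay 1.08 below the other lines and was no longer called. TOV112D and OV7 differed by less than the typical spread between arrays of this gene.

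TGFB1, the most widely studied isoform, had 6 lines below the rest, of which 3 were called low. Its lowest level was 5.27 in OVCA432, its median 8.03 and its highest level 9.12 in OVCA420. OVCA432 (arrays 5.35 and 5.20), OAW42 (5.20 and 5.60) and FUOV1 (5.60 and 5.55) were called low, by 2.45, 2.32 and 2.14 log2 units (SE 0.13 each, limma adjusted p at most 1.38e-14). OAW28 (5.84), OVCAR3 (6.03) and JHOS4 (6.29) followed without a call, and the next line was OV17R at 7.05. In OVCA432 and OAW42 the level was below the guide to silent genes, which 26 of 28 lines exceeded. TGFB3 stayed between 5.18 in COLO720E and 6.85 in TOV112D (median 5.61), with no line called.

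BMP4, BMP6 and BMP7 each had high lines, whereas BMP2 and BMP5 had none called. BMP7, a ligand first known from bone and kidney development, had a low median of 6.15 and a group of 6 lines far above it. Its arrays read 10.38 and 10.23 in OAW42, 10.22 and 10.12 in OVCA432, 10.06 and 10.07 in OVCAR3, 9.58 and 9.74 in JHOS4 and 9.54 and 9.73 in EFO21. FUOV1 belonged to the same group, though its arrays were 8.56 and 10.53. The 6 lines exceeded the other lines by 2.70 to 3.48 log2 units (SE 0.27, limma adjusted p at most 1.78e-09), and OVCAR5 was called low at 4.92. All 3 lines with low TGFB1 (OVCA432, OAW42 and FUOV1) were among these 6 BMP7-high lines.

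BMP4 had its lowest level in OVCA432 (4.55), a median of 6.87 and its highest level in DOV13 (10.72). DOV13 (arrays 10.79 and 10.65), OV7 (10.58 and 10.19), JHOS2 (10.17 and 9.97) and EFO21 (9.62 and 10.12) were called high, by 2.84 to 3.72 log2 units (SE 0.18, limma adjusted p at most 1.46e-13). OVCA432, 1 of the highest lines for BMP7, was the only line called low for BMP4 (difference -2.68). DOV13 and OV7 were high for both TGFB2 and BMP4. BMP6, which in the liver controls iron balance through hepcidin, was called high in EFO21 alone, with arrays at 8.78 and 9.05 against a median of 5.92 over the other lines (difference 2.78, SE 0.20). EFO21 was thus high for BMP4, BMP6 and BMP7 together. BMP2 ran from 5.91 in OV17R over a median of 6.29 to 8.31 in OV7. BMP5 exceeded the guide to silent genes in 3 lines (OVCAR2, A2780 and OVCAR3, at 5.98, 5.65 and 5.44).

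INHBA encodes the beta A subunit, whose dimer is activin A. INHBA had 5 lines called high over a floor near the silent guide, which 15 of 28 lines exceeded. The level was 4.56 in COLO720E, 5.60 at the median and 9.06 in DOV13. The arrays read 9.06 and 9.07 in DOV13, 8.67 and 8.93 in SKOV3, 9.03 and 8.50 in JHOS2, 8.82 and 8.55 in HEY and 8.45 and 8.31 in OVCAR5. These lines exceeded the others by 2.75, 2.48, 2.44, 2.36 and 2.05 log2 units (SE 0.35, limma adjusted p from 3.18e-07 to 4.16e-05). Without the 3 arrays that stood apart OVCAR5 fell just short of the limit (1.99). HEYC2 and OV56 were not called, but the array that stood apart read 6.84 in HEYC2 and 6.92 in OV56, and the other array 9.17 and 9.05, so their means are uncertain for this gene.

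INHBB, the beta B subunit of activin B, had a narrow range with PEO1 at its top. It was lowest in SKOV3 (7.05) and had a median of 7.40, and the arrays of PEO1 read 9.11 and 8.92. No line was called for INHBB, INHA, NODAL, LEFTY1 or LEFTY2. INHA, the inhibin alpha subunit, ran from 5.74 to 6.75 and its highest line was OV56, whose arrays differed by 1.53. NODAL, an embryonic ligand, was at 4.08 to 4.77 and exceeded the silent guide in 0 of 28 lines. LEFTY1 and LEFTY2, nodal antagonists with closely similar sequences whose probes may share signal, reached their highest level in OVCA420 (7.35 for both), a line with an array that stood apart.

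**Figure D2:**
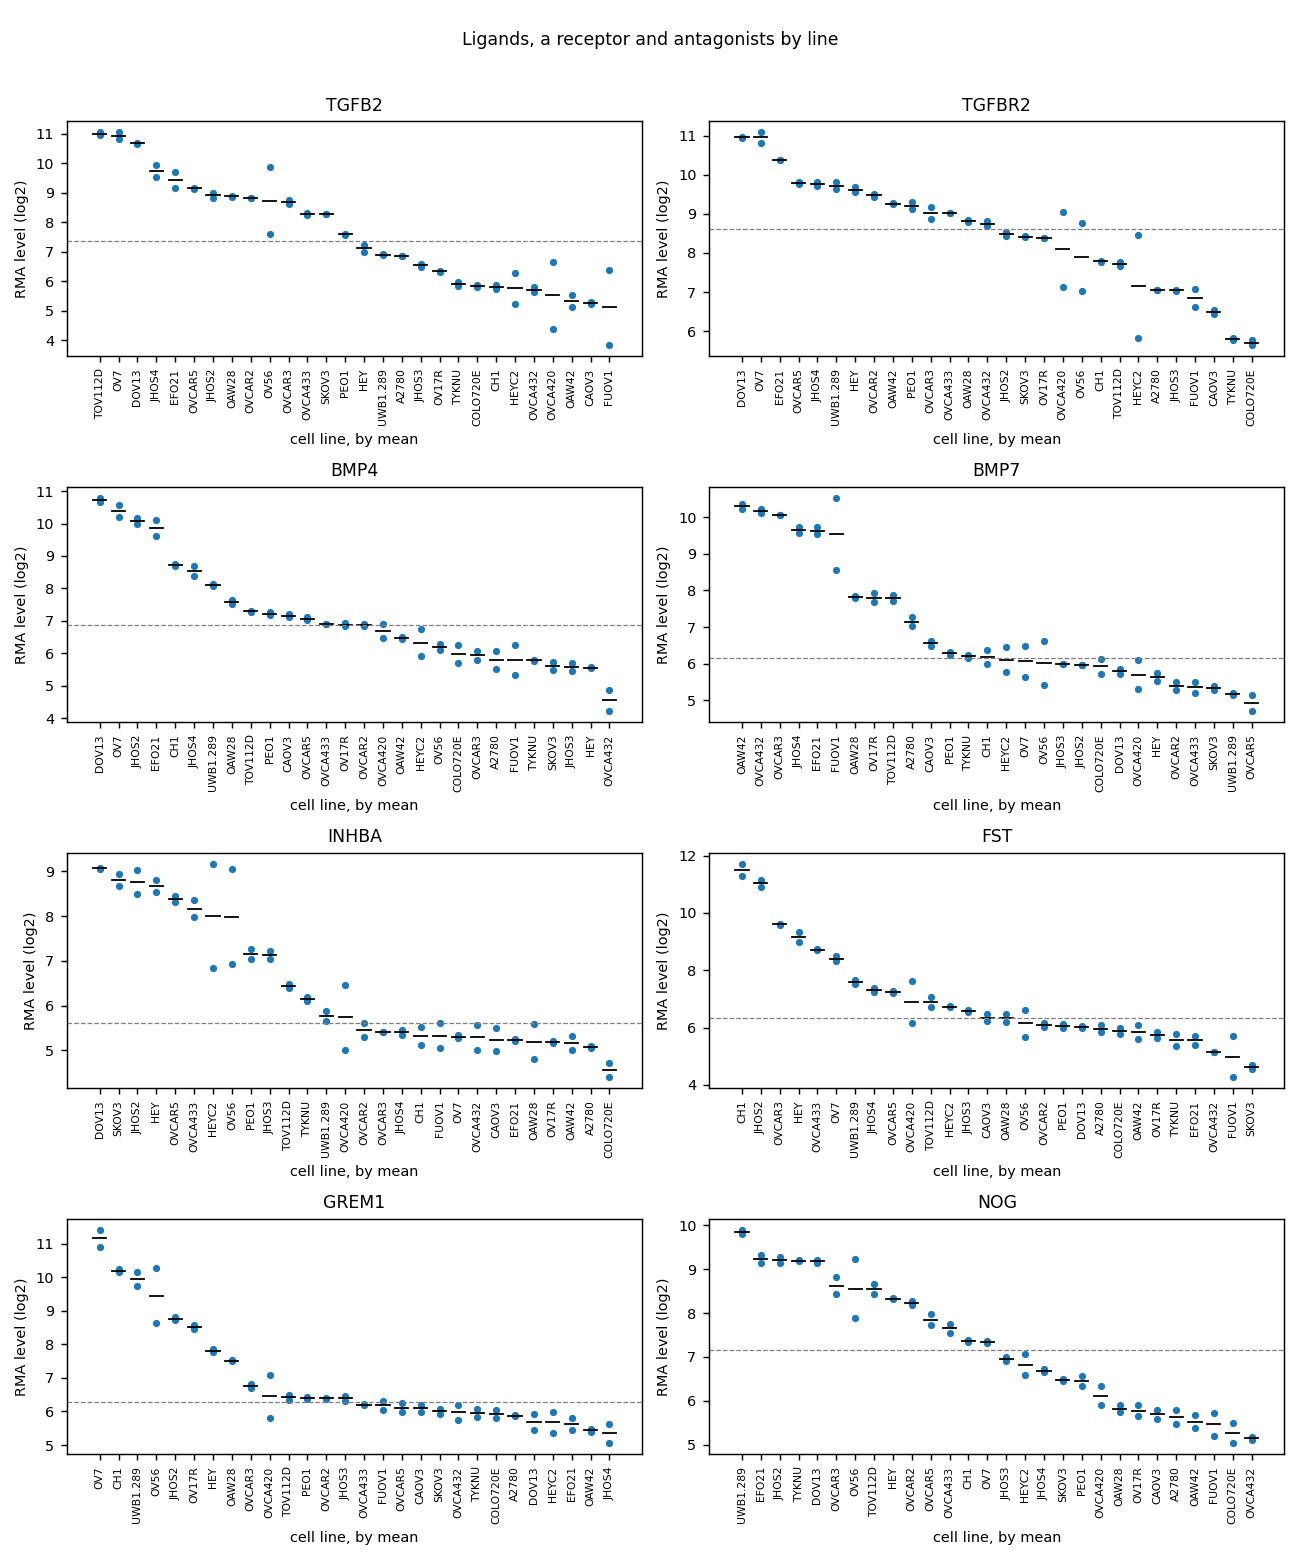
Log2 level of ligands, the receptor TGFBR2 and antagonists in each of the 28 lines, sorted by the line mean within each panel. Points are the 2 arrays, the dash is their mean and the dashed grey line the median over lines. BMP7 has 6 lines at 9.55 to 10.30 above a median of 6.15, and TGFBR2 runs from 5.71 in COLO720E to 10.96 in DOV13.

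Of the receptors, only TGFBR2 and BMPR2 had a line called. TGFBR2 is the type II receptor that binds TGF-beta and activates TGFBR1. It was at 5.71 in COLO720E, 8.62 at the median and 10.96 in DOV13. DOV13 (arrays 10.95 and 10.98) and OV7 (10.82 and 11.10) were called high by 2.57 and 2.56 log2 units (SE 0.35, limma adjusted p = 1.03e-06 and 1.08e-06). COLO720E (5.77 and 5.64), TYKNU (5.82 and 5.78) and CAOV3 (6.53 and 6.43) were called low by 2.88, 2.78 and 2.08 log2 units. The lines at each end of the order were therefore separated by more than 5 log2 units, and DOV13 and OV7 were the lines that were high for TGFB2, BMP4 and TGFBR2 at once.

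COLO720E, lowest for TGFBR2, had the highest mean for TGFBR1, the type I receptor (10.09, against a median of 8.95 and a lowest level of 7.59 in TYKNU). In OVCA420 the array that stood apart read 6.94 for TGFBR1 and the other array 10.71, so the top of this order is uncertain. TGFBR3, the coreceptor betaglycan, ran from 5.66 in OVCA420 over 7.12 to 8.47 in OV17R. BMPR2, the type II receptor for BMPs, was called high in TOV112D (arrays 10.12 and 9.98, difference 2.12, SE 0.46, limma adjusted p = 7.78e-04), which missed the limit at 1.97 without the 3 arrays that stood apart. BMPR1B, a type I receptor for BMPs, exceeded the silent guide in 10 of 28 lines, with OV17R (6.97), JHOS4 (6.84) and DOV13 (6.78) at the top by mean. For BMPR1B too the arrays of OVCA420 disagreed, with 5.61 in the array that stood apart and 7.61 in the other. ACVR1 ranged over 2.42 log2 units, ACVR2A over 2.45, ACVR2B over 1.67 and ACVR1B over 1.35. ACVR1 is a type I receptor used by BMPs, ACVR1B is the type I receptor of activin, and ACVR2A and ACVR2B are type II receptors for activins and some BMPs. All 4 were above the silent guide in every line.

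The SMADs were above the silent guide in all 28 lines, and 1 call was made among them. SMAD3, which carries the TGF-beta and activin signal, was at 6.67 in COLO720E, 8.88 at the median and 10.57 in OVCAR5. COLO720E was called low (arrays 6.33 and 7.01, difference -2.22, SE 0.19, limma adjusted p = 1.19e-10), so that this line was low for both TGFBR2 and SMAD3. SMAD2 and SMAD4 had their 3 lowest levels in HEYC2, OV56 and OVCA420, each with an array that stood apart. SMAD5 was lowest in OVCA420 (6.91) and OV56 (7.40), followed by JHOS4 (7.49) and HEYC2 (7.60). For SMAD2 the level was 7.28 in OV56, 7.42 in OVCA420 and 7.55 in HEYC2, against a median of 9.08, and the 2 arrays of OVCA420 differed by 4.18. In each of these lines the array that stood apart was the lower one for all 3 genes, while the typical difference between the arrays of a line was 0.08 for SMAD2 and 0.07 for SMAD4. SMAD9, which acts with BMPs, was highest in COLO720E (7.90), JHOS3 (7.61) and SKOV3 (7.06), with a median of 6.27. The inhibitory SMADs were spread evenly: SMAD6 from 6.73 in OVCA433 to 9.35 in FUOV1, and SMAD7 from 5.98 in CAOV3 to 8.47 in JHOS4. In SMAD6 18 of the 27 gaps between neighbouring lines were smaller than the typical difference between arrays, and in SMAD7 22 of 27.

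Of the 4 secreted antagonists, FST, GREM1 and NOG each ranged over more than 4 log2 units. FST, which binds activins almost irreversibly, spanned 6.87 log2 units, the widest range of any member. It was at 4.63 in SKOV3, 6.33 at the median and 11.50 in CH1. CH1 (arrays 11.71 and 11.30), JHOS2 (11.15 and 10.91), OVCAR3 (9.58 and 9.61) and HEY (9.33 and 8.98) were called high by 4.75, 4.26, 2.77 and 2.32 log2 units (SE 0.24, limma adjusted p at most 5.03e-09). SKOV3 (4.55 and 4.71) was called low by 2.38, and FUOV1 by 2.01 with arrays that disagreed (4.27 and 5.71). JHOS2 and HEY were high for both FST and INHBA, whereas SKOV3 was high for INHBA and lowest for FST. FSTL3, a relative of follistatin with the same ligands, was called high in SKOV3 alone (arrays 9.87 and 10.31, median of the other lines 7.86, difference 2.08, SE 0.24).

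GREM1 and NOG capture BMPs. GREM1 was called high in OV7 (arrays 10.90 and 11.41), CH1 (10.25 and 10.15), UWB1.289 (9.75 and 10.16) and OV56 (10.26 and 8.64), by 4.38, 3.38, 3.13 and 2.61 log2 units (SE 0.24, limma adjusted p at most 3.72e-10). Its median was 6.29 and its lowest line was JHOS4 (5.35). In OV7 the mean of 6 fibroblast markers was 7.87, the highest of the 28 lines (range of the list 4.98 to 7.87, median 5.34), and COL1A1, DCN and LUM were called high there. TOV112D, which led TGFB2, ID2 and BMPR2, was next with 7.76, with COL3A1, DCN and LUM called high. CH1, OV56 and UWB1.289, the other GREM1-high lines, had fibroblast means of 6.12, 6.23 and 5.59 (ranks 7, 6 and 12 of 28). COL1A1 was called high in CH1 (difference 2.35) and OV56 (2.06). In UWB1.289 COL1A2 was called high (3.19), but COL1A1 was at its lowest level of the 28 lines (6.85). A collagen of the list was also called high in SKOV3, A2780, OV17R and TOV112D, which were not GREM1-high. Of the 6 markers COL1A1, COL1A2 and COL3A1 exceeded the silent guide in 28 of 28 lines, PDGFRB in 22, LUM in 3 and DCN in 2. The part of these markers in the levels of GREM1 and TGFB2 was not tested.

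NOG had a more gradual order, from 5.14 in OVCA432 over 7.15 to 9.86 in UWB1.289. UWB1.289 (arrays 9.81 and 9.90) was called high by 2.70, and EFO21, JHOS2, TYKNU and DOV13 by 2.06, 2.03, 2.02 and 2.00 (SE 0.18, limma adjusted p at most 2.78e-10). Under a further quantile normalisation EFO21, TYKNU and DOV13 lay 1.97 to 1.98 above the other lines and were not called, and DOV13 lay at 1.99 without the 3 arrays that stood apart. COLO720E (5.49 and 5.03) and OVCA432 (5.18 and 5.10) were called low. EFO21 and TYKNU had the highest means of the 3 endothelial markers (7.85 and 8.15, range over lines 4.74 to 8.15, median 5.24), with PECAM1 and CDH5 called high in both. CDH5 was also called high in UWB1.289 (2.31) and DOV13 (2.17), so that 4 of the 5 NOG-high lines had an endothelial marker called high. It was called high in HEY and OV17R too, which were not NOG-high. In OV56, not called for NOG, the array that stood apart read 7.89 for NOG and the other array 9.23. OV56 had 0 endothelial markers called high, so the tally of 4 of 5 is uncertain by this line. CDH5 exceeded the silent guide in 19 of 28 lines, PECAM1 in 6 and VWF in 2. The part of these markers in the level of NOG was not tested.

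The ID genes encode helix-loop-helix proteins without a DNA-binding domain that keep differentiation factors inactive. All 4 had lines called on both sides. The promoters of ID1, ID2 and ID3, whose levels were related over the lines (rho 0.412 to 0.594 between pairs), are shown (RefSeq, GRCh38.p14, 250 bases before to 50 after the start, 5′ to 3′ on the gene's strand). Capitals mark matches to 4 short motifs, each searched on both strands. The SMAD box was read as CAGAC. A second SMAD element, rich in guanine and cytosine, was read as GGCGCC. The core promoter element that binds the TATA-binding protein was read as TATAAA. The site of the nuclear factor Y was read as CCAAT. The ID1 window is chr20:31605039-31605338 on the + strand, ID2 chr2:8681806-8682105 on the + strand, and ID3 chr1:23559452-23559751 on the - strand.
ID1: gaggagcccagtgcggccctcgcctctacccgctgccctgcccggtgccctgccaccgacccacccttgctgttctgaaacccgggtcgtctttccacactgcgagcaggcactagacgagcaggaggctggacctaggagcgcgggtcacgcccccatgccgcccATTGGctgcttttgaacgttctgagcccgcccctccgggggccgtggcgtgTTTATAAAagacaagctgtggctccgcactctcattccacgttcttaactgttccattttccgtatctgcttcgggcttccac
ID2: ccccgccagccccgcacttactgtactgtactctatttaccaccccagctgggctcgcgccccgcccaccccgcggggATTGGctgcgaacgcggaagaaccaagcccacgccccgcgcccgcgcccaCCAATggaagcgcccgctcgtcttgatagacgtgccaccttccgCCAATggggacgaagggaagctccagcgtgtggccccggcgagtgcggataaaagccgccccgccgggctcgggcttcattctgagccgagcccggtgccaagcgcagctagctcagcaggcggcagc
ID3: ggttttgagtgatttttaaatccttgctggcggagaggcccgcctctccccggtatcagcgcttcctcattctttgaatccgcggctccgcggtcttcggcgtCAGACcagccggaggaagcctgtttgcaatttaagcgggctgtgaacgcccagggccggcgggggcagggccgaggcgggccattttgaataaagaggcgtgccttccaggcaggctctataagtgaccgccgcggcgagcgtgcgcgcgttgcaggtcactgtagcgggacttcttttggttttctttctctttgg
CAGAC or GTCTG occurred in 45.3% of 35116 promoter windows of this length, GGCGCC in 19.2%, TATAAA or TTTATA in 11.5% and CCAAT or ATTGG in 34.6%. ID1 held TATAAA matches on both strands, which overlap at -33 and -31, and a CCAAT match at -84. ID2 held CCAAT matches at -172, -122 and -78, and ID3 a CAGAC match at -147. GGCGCC had 0 matches in these windows. Each match is a description of the letters only, and 35 of the 40 members had an entry in the table.

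ID1 was at 7.90 in COLO720E, 10.00 at the median and 12.07 in JHOS3. JHOS3 (arrays 12.02 and 12.11) was called high by 2.12 log2 units and COLO720E (7.87 and 7.93) low by 2.20 (SE 0.17, limma adjusted p = 3.16e-11 and 1.40e-11). OAW28 (11.51) and PEO1 (11.27) followed JHOS3, and UWB1.289 (8.43) and OVCA432 (8.53) were the next lowest after COLO720E. For ID1, 12 of the 27 gaps between neighbouring lines were smaller than the typical difference between arrays.

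ID2 was at 5.09 in HEYC2, 7.39 at the median and 10.47 in TOV112D. TOV112D (arrays 10.49 and 10.45) and OVCAR3 (10.06 and 10.04) were called high by 3.01 and 2.57 log2 units (SE 0.29, limma adjusted p = 1.09e-09 and 2.72e-08). FUOV1 (arrays 4.70 and 5.85), OVCA432 (5.41 and 5.40), UWB1.289 (5.56 and 5.50) and HEYC2 (4.36 and 5.82) were called low. HEYC2 lost its call without the 3 arrays that stood apart (difference -1.89), and UWB1.289 fell just short of the limit under a further quantile normalisation.

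ID3 was at 6.21 in UWB1.289, 8.75 at the median and 11.26 in CAOV3. CAOV3 (arrays 11.28 and 11.24) was called high by 2.68 log2 units, and UWB1.289 (6.30 and 6.13) and COLO720E (6.54 and 6.38) low by 2.56 and 2.30 (SE 0.24, limma adjusted p at most 7.82e-09). ID4 was at 6.05 in OVCAR2, 8.11 at the median and 10.84 in EFO21. In OVCA420 the array that stood apart read 7.12 for ID4 and the other array 5.89, so which line is lowest is uncertain. EFO21 (arrays 10.75 and 10.94) and A2780 (10.63 and 10.35) were called high by 2.62 and 2.25, and OVCAR2 (6.24 and 5.87) low by 2.35 (SE 0.21, limma adjusted p at most 5.40e-10). COLO720E was low for both ID1 and ID3, UWB1.289 for ID2 and ID3. No line was called high for more than 1 ID gene.

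**Figure D3:**
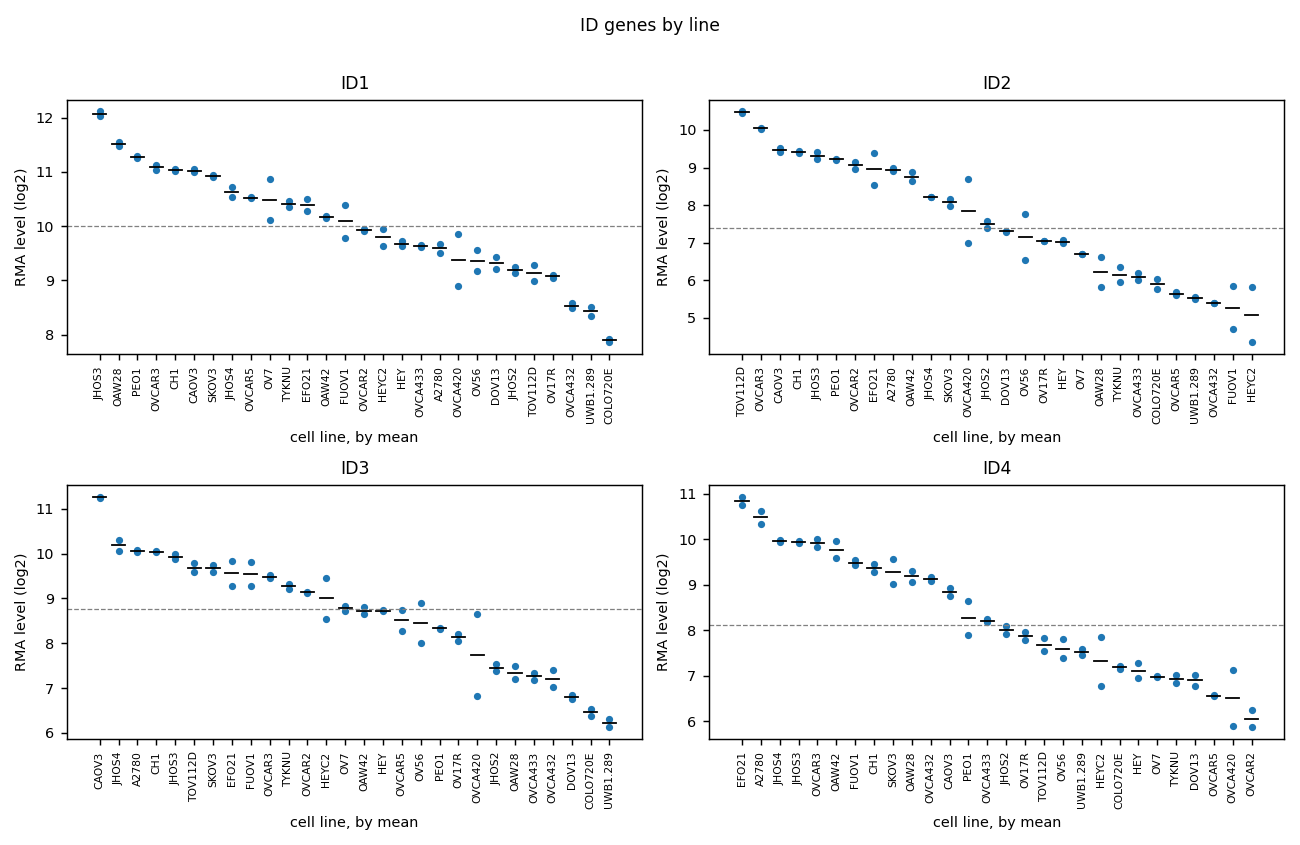
Log2 level of ID1, ID2, ID3 and ID4 in each of the 28 lines, sorted by the line mean within each panel. Points are the 2 arrays, the dash is their mean and the dashed grey line the median over lines. ID1 has its median at 10.00 with COLO720E lowest at 7.90, and the widest of the 4 ranges is that of ID2 (5.09 to 10.47).

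Seen by line, DOV13 and EFO21 each had 5 of the 39 members called high and 0 low. In DOV13 these were TGFB2, BMP4, INHBA, TGFBR2 and NOG (1.21% of all genes were called high in this line), and in EFO21 BMP4, BMP6, BMP7, NOG and ID4 (0.865%). JHOS2 (BMP4, INHBA, FST and NOG, 0.582% of all genes) and OV7 (TGFB2, BMP4, TGFBR2 and GREM1, 1.10%) had 4 each. COLO720E had 5 members called low and 0 high: TGFBR2, SMAD3, NOG, ID1 and ID3. Over all genes 1.00% were called low in COLO720E and 1.02% high, and its ovarian markers were among the lowest. OVCA432 had 4 called low (TGFB1, BMP4, NOG and ID2, 0.539% of all genes) beside high BMP7. FUOV1 also had 4 called low (TGFB1, TGFB2, FST and ID2, 0.936% of all genes) beside high BMP7, with arrays that differed by more than 1 log2 unit in all of these but TGFB1.

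Whether the members follow the EMT state of the lines was asked with a score rebuilt from 384 signature genes (184 epithelial and 200 mesenchymal), where a higher score is more mesenchymal. It ran from -0.819 in PEO1 to 0.720 in TOV112D, and in OAW42, OV7, OV56, FUOV1 and HEYC2 (5 lines) the sign of the score differed between the 2 arrays. None of the 39 members passed an adjusted p under 0.05 over 18377 relations (100000 permutations, 2-sided), where 0.131% of all genes rose and 0.669% fell. Spearman's rho exceeded 0.5 in 0 members (1.03% of all genes) and was below -0.5 in 1 (2.07%). The median rho was -0.04 over the members and 0.01 over all genes, and 16 of 39 were positive.

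INHBB was the member below -0.5. Its rho was -0.546 (permutation p = 0.00314, adjusted p = 0.164) and Pearson's r -0.585 (permutation p = 7.3e-04, adjusted p = 0.0641), with r at -0.483 once the lines with the most extreme scores (TOV112D and PEO1) were left out. The sign held within DMEM (rho -0.770), RPMI (-0.467) and DMEM/F12 (-0.786). INHBB is itself 1 of the epithelial genes of the signature, which the study chose for telling epithelial from mesenchymal ovarian lines. A negative rho is therefore partly fixed by that choice, and leaving INHBB out of the score (rho -0.546) cannot remove this. INHBB passed when each line was centred on its base medium (rho -0.688, permutation adjusted p = 0.0405), and rho was -0.488 without the 3 arrays that stood apart.

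TGFBR3 had the highest rho (0.495, permutation p = 0.00793, adjusted p = 0.242). Pearson's r was 0.562 (permutation p = 0.0022, adjusted p = 0.121) and 0.520 without the 2 farthest lines, and rho was 0.636 over DMEM lines, 0.500 over RPMI lines and 0.107 over DMEM/F12 lines. Over the replicate 2 arrays alone it passed (rho 0.633, adjusted p = 0.0483), and over the replicate 1 arrays alone rho was 0.396. SMAD3 followed on the negative side (rho -0.424, r -0.396, permutation p = 0.0257 and 0.0373, adjusted p = 0.392 and 0.471), with r at -0.306 without the 2 farthest lines. TGFB1 (rho 0.235), TGFB2 (-0.086) and TGFBR2 (-0.268), whose products start and receive the TGF-beta signal, stayed well inside the limits. The 5 BMP ligands had a rho from -0.343 (BMP4) to -0.020 (BMP6), and those of BMP2, BMP5 and BMP6 changed sign under some alternatives. With every line centred on its base medium rho was 0.254 for BMP2 and 0.067 for BMP6, and Pearson's r was 0.112 for BMP5.

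ID1 had a rho of -0.231 over the 28 lines (adjusted p = 0.782), but -0.917 over the 9 lines in RPMI, 0.285 over the 10 in DMEM and -0.286 over the 7 in DMEM/F12. A test of equal slopes in the 3 media did not pass for ID1 (limma adjusted p = 1.00). It passed for 0 members at an adjusted p under 0.05 and 0 at an unadjusted p under 0.05, where 0.00544% and 2.83% of all genes did. The within-medium values for ID1 are thus not shown to differ.

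**Figure D4:**
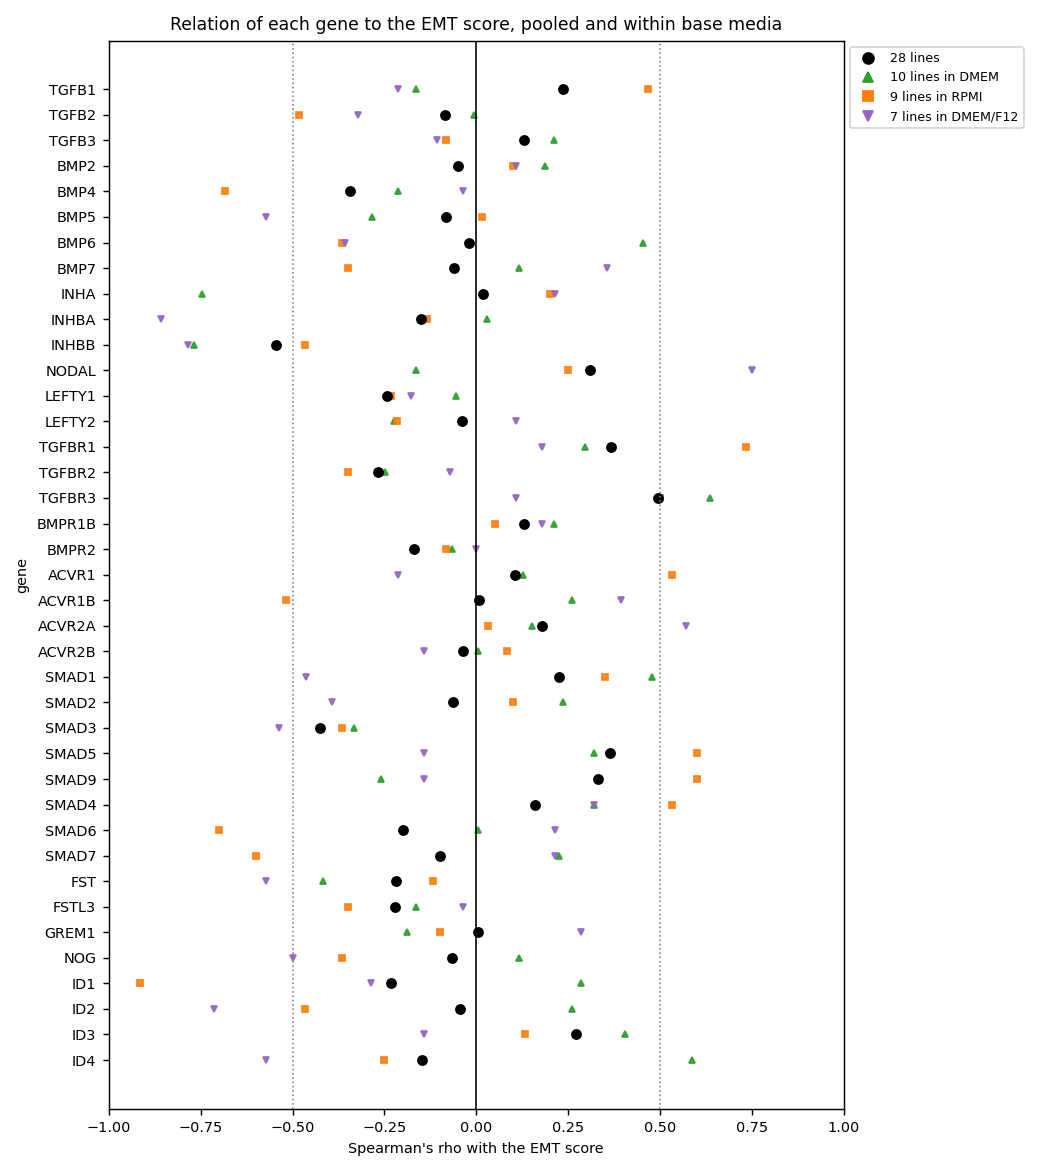
Spearman's rho of each member with the EMT score. Black points are all 28 lines, and the coloured symbols are the lines within DMEM (n = 10), RPMI (n = 9) and DMEM/F12 (n = 7). Over 28 lines INHBB (-0.546) is the only member outside 0.5 in size, and the within-medium values scatter widely around the pooled ones.

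SKOV3 and PEO1 lie toward opposite ends of the EMT order (scores 0.534 and -0.819) and were contrasted as a mesenchymal and an epithelial line. With a single line on each side, the p-values measure the spread between arrays only. They do not test whether the members follow the EMT state. SKOV3 was higher by at least 1 log2 unit at an adjusted p under 0.05 in 6 members (5.31% of all genes were) and lower in 5 (5.46%). The higher members were FSTL3, INHBA, ACVR1, SMAD9, ID3 and ID4, and the lower ones INHBB, SMAD3, BMP4, FST and ID2. The median difference over the members was 0.44, against -0.01 over all genes. The lines also differ in base medium, DMEM for SKOV3 and RPMI for PEO1, which cannot be told apart from the line.

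On the activin side, FSTL3 read 9.87 and 10.31 in SKOV3, against 7.74 and 7.22 in PEO1 (difference 2.61, SE 0.34, limma adjusted p = 3.16e-07). FST went the other way, at 4.55 and 4.71 in SKOV3 and 5.98 and 6.13 in PEO1 (-1.42, SE 0.33, adjusted p = 0.00174). INHBA was at 8.67 and 8.93 in SKOV3, against 7.26 and 7.05 in PEO1 (1.65, SE 0.49, adjusted p = 0.015). INHBB was at 7.13 and 6.97 in SKOV3, against 9.11 and 8.92 in PEO1 (-1.96, SE 0.35, adjusted p = 5.44e-05). The 2 activin subunits and the 2 follistatins thus each differed in opposite directions, though INHBA lost its call when any single array of these lines was left out.

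ACVR1 was at 7.44 and 7.66 in SKOV3, against 6.10 and 5.94 in PEO1 (1.53, SE 0.36, limma adjusted p = 0.00196). SMAD9 was at 7.02 and 7.11 in SKOV3, against 5.70 and 5.46 in PEO1 (1.48, SE 0.23, adjusted p = 5.07e-06). SMAD3 was at 7.86 and 7.97 in SKOV3, against 9.79 and 9.61 in PEO1 (-1.78, SE 0.27, adjusted p = 4.73e-06). BMP4 was at 5.47 and 5.72 in SKOV3, against 7.17 and 7.26 in PEO1 (-1.62, SE 0.26, adjusted p = 9.66e-06). SMAD2, of the same branch as SMAD3, averaged 10.15 in SKOV3, against 8.96 in PEO1, and was not called (1.19, SE 0.71, adjusted p = 0.339). SMAD1 (1.00) and SMAD5 (0.94), which act with SMAD9, were not called either.

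The ID genes did not move together in this contrast. ID3 was at 9.60 and 9.76 in SKOV3, against 8.32 and 8.34 in PEO1 (1.35, SE 0.34, limma adjusted p = 0.00346), and ID4 at 9.01 and 9.57 in SKOV3, against 7.89 and 8.63 in PEO1 (1.02, SE 0.29, adjusted p = 0.0105). ID2 was at 7.98 and 8.16 in SKOV3, against 9.23 and 9.21 in PEO1 (-1.15, SE 0.40, adjusted p = 0.044). ID1 was at 10.90 and 10.94 in SKOV3, against 11.25 and 11.30 in PEO1, a difference of -0.36 that did not pass (adjusted p = 0.438). INHBA and ID2 lost their calls when any 1 of the 4 arrays was left out (adjusted p 0.052 to 0.121 and 0.12 to 0.222), ID2 also under a further quantile normalisation (difference -1.11, adjusted p = 0.102), and ID4 without SKOV3 replicate 2 (0.223) or PEO1 replicate 1 (0.308). Without the 3 arrays that stood apart, TGFBR1 (1.06), BMPR2 (1.03), SMAD2 (1.19) and SMAD4 (1.34) were also called higher.

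**Figure D5:**
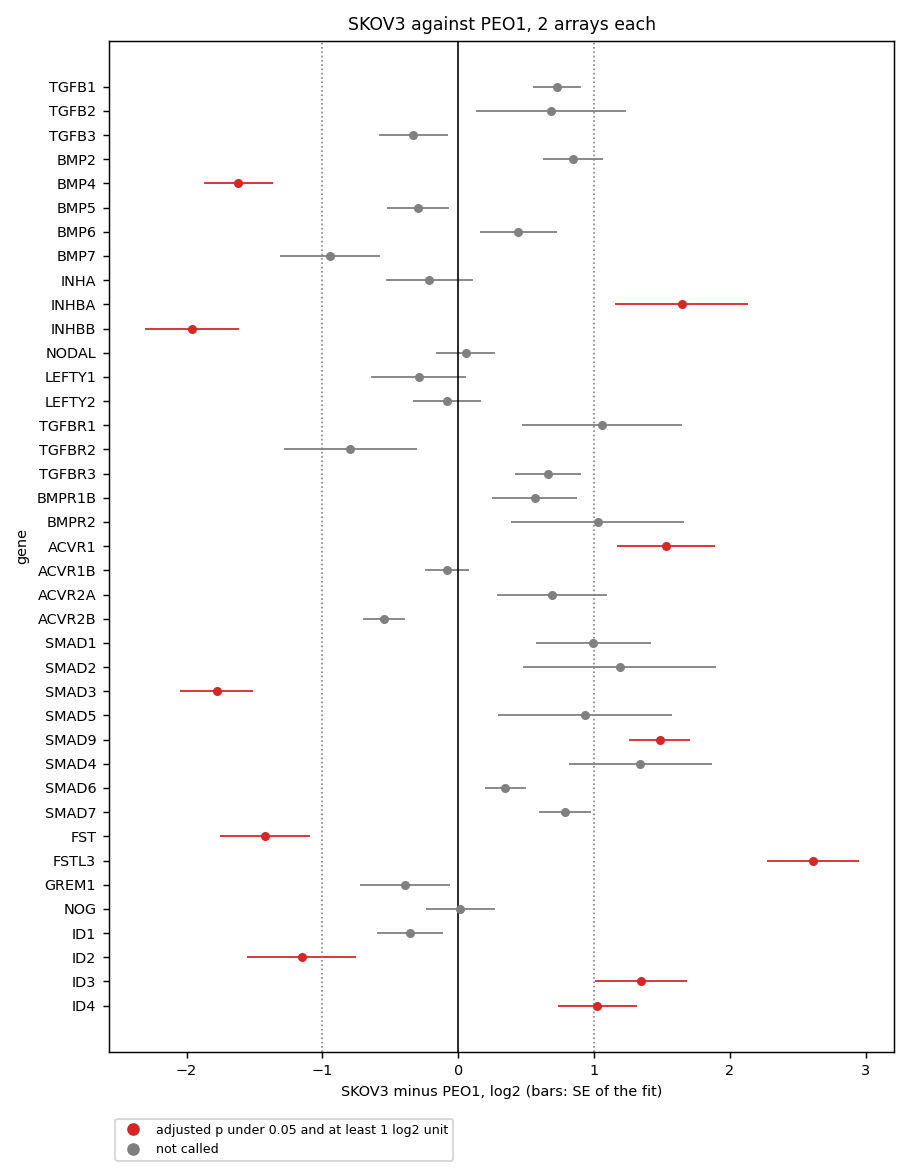
Difference between SKOV3 and PEO1 (SKOV3 minus PEO1, log2 units) for each member, with its SE from the fit over 56 arrays. Red marks the members called at 1 log2 unit and an adjusted p under 0.05, from FSTL3 (2.61) at one end to INHBB (-1.96) at the other.

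Between lines grown in DMEM (n = 10) and in RPMI (n = 9), 0 members and 0 of 18377 genes passed an adjusted p under 0.05 (0% of all genes). At an unadjusted p under 0.05 2 members passed, where 2.81% of all genes did. BMP5 ran from 3.87 over 4.19 to 4.55 in DMEM lines and from 4.04 over 4.37 to 5.98 in RPMI lines (lowest, median and highest, difference -0.58, SE 0.21, limma adjusted p = 1.00). BMPR2 ran from 7.34 over 8.30 to 9.36 in DMEM lines and from 6.46 over 7.70 to 8.36 in RPMI lines (difference 0.56, SE 0.27, limma adjusted p = 1.00). The groups overlapped for both genes. Lines were not assigned to media at random, and serum, insulin and hydrocortisone, which also differed between lines, were not compared.

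Likeness between members over the 28 lines is given as a description, since the points share arrays, normalisation and media. ID1 and ID3 had a rho of 0.555 (r 0.617), which placed ID3 at rank 22 among 18376 genes by likeness to ID1. The same pair had 0.697 over DMEM lines, -0.017 over RPMI lines and 0.893 over DMEM/F12 lines. ID2 and ID3 had 0.594 (rank 15), ID3 and ID4 0.503 and ID1 and ID2 0.412. Of the BMP ligands, BMP2 (0.257), BMP7 (0.186) and BMP4 (0.024) had lower values with ID1, and the inhibitory SMAD6, itself a BMP target, had 0.466 (rank 132). SMAD6 and SMAD7 had 0.570 (rank 59).

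INHBA and FSTL3 had a rho of 0.496, and INHBA and FST 0.319. Among all 741 member pairs the highest was SMAD2 with SMAD4 (0.696, and 0.631 without the 3 arrays that stood apart), followed by BMPR2 with SMAD2 (0.667 and 0.556) and BMP7 with ID4 (0.641 and 0.675). TGFB2 had 0.617 with TGFBR2. The lowest were BMP7 with INHBA (-0.628, and -0.494 without those arrays), INHBB with SMAD5 (-0.602 and -0.450), and BMP7 with TGFB1 stood at -0.547 (r -0.769). Of the 741 pairs 20 exceeded 0.5 (2.70%, against 1.70% of the members' pairs with all genes) and 10 were below -0.5 (1.35%, against 1.47%), and the median was 0.01.

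The genes most like 4 members over the 28 lines were listed by rho without regard to function. For INHBA they were FRMD6 (0.800), MT4 (0.779), PLAU (0.776), GPR176 (0.773) and RELL1 (0.756). For SMAD7 they were KCTD1 (0.700), ABLIM1 (0.693), ENTREP2 (0.683), SETBP1 (0.683) and JAG1 (0.666). TGFBR2 was most like SPATS2L (0.709), ANXA2 (0.688), ANXA2P2 (0.659), VANGL1 (0.646) and RETSAT (0.645), of which ANXA2P2 is a pseudogene of ANXA2 and may share its signal. ID1 was most like AAGAB (0.679), TFAP2A (0.678), ICMT (0.667), ARIH1 (0.661) and AP1B1 (0.640).

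Other genes of the pathway were read as lists. Of 10 genes that bind or activate latent TGF-beta, 0 rose and 2 fell with the EMT score. These were ITGB6 (rho -0.709, permutation adjusted p = 0.0173, a signature gene) and ITGB8 (rho -0.670, adjusted p = 0.0346), the beta subunits of integrins that release TGF-beta from its latent complex. As with INHBB, the negative rho of ITGB6 is partly fixed by its place among the epithelial signature genes. For ITGB8 rho was -0.127 over DMEM lines, -0.683 over RPMI lines and -0.321 over DMEM/F12 lines. LTBP3, a latent TGF-beta binding protein, had a rho of -0.584 (adjusted p = 0.104). In SKOV3 against PEO1 0 of the 10 were higher and 3 lower: ITGB6 (-5.66, SE 0.55), ITGB8 (-3.39, SE 0.55) and LTBP3 (-2.10, SE 0.19), with limma adjusted p at most 1.42e-05. The members' median rho of -0.04 compares with -0.24 for this list and 0.01 for all genes.

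Of 9 genes known as TGF-beta targets, 5 were higher and 1 lower in SKOV3 than in PEO1, with a median difference of 1.37. TAGLN, an actin-binding protein of smooth muscle, was at 10.93 and 11.14 in SKOV3, against 6.35 and 6.49 in PEO1 (4.61, SE 0.27, limma adjusted p = 7.89e-15). FN1 (3.18) and COL1A1 (2.99), both matrix genes, were also higher, and JUNB lower (-1.48). COL1A1 is also on the fibroblast list, of which 2 of 6 were higher. Over the 28 lines 0 of these 9 passed with the EMT score and their median rho was -0.07. Of 6 BMP targets other than the ID genes, HEY1 (1.84) and MSX2 (1.35) were higher in SKOV3 and 0 lower.

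In the remaining lists 1 of 17 further ligands was higher in SKOV3 (GDF6, 1.86) and 0 lower, 1 of 9 further receptors was higher (BAMBI, a decoy receptor, 1.22) and 1 lower (ENG, endoglin, -1.09). Of 10 further antagonists 0 were higher and 1 lower (CHRDL1, -3.73), and of 14 SMAD cofactors and regulators 0 were higher and 1 lower (PMEPA1, a TGF-beta-induced inhibitor, -2.21). In these 4 lists 0 genes passed with the EMT score. The lines differed in 7 of the 17 further ligands, which had a median SD between lines of 0.25, against 0.73 over the members and 0.42 over all genes.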

How the data were processed

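Total RNA of 28 ovarian cancer cell lines was profiled on 56 Affymetrix Human Gene ST arrays. Per the submitters' processing notes the authors used RMA (affy 1.42.3) for normalisation, and the values they deposited are on the log2 scale. Which arrays were normalised together and any batches are not given in the sources used here. Of 28869 probe sets, 19310 carry 1 gene in the platform's annotation, 1752 several and 7807 none that is listed. This left 18377 genes, and where a gene had several probe sets (685 genes) the one with the highest mean stood for it. The number of arrays limits the precision.

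A mean for each line was fitted to all arrays with limma 3.58.1 (statmod 1.5.0, R 4.3.3, trend and robust settings), which gave the F test between lines, each line against the other 27, and SKOV3 against PEO1. DMEM and RPMI lines, and slopes on the EMT score within media, were compared on line means. For the EMT score, mesenchymal and epithelial signature genes were compared within each array by a signed Kolmogorov-Smirnov statistic. Of 420 signature genes in a supplementary list of the study on methylation sites, 384 were measured. The signature reported in the paper is larger, so the score rests on a part of it. The study's formula is not fully given, so the score was rebuilt and other forms were tried. Relations to it were tested with 100000 permutations (Python 3.11.15, numpy 2.4.6, scipy 1.17.1). Adjustment was by Benjamini-Hochberg across all genes, and for single lines across all lines too. The code was tested on simulated data.

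The members, gene lists and tests were chosen with earlier results of these data known. Full values are given for members with a call, with a rho over 0.5 in size, or with a line called. Up to 3 genes of each further list are named, those called or most variable. Alternatives were a replicate block, further quantile normalisation, the mean over probe sets, a filter on dim genes (13004 genes left), leaving out arrays or lines, other forms of the score and other fits. Columns of all arrays were used. Replicate numbers showed no pairing common to all lines: deviations of arrays from their line means correlated from -0.887 to 0.871 over 378 pairs of lines (median -0.0002). In 91 of these pairs the correlation was above 0.1, and batches shared by some of the lines were not tested. Further experiments of the study are not analysed here.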

Additional observations from a re-analysis of the deposited data

Results flagged for a closer look

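Within the lines of a shared base medium, 16 of 117 combinations of member and medium had a line set apart from the rest by Dixon's test, in 15 genes. Chance gives about 1 in 20 such combinations where values over lines are normally distributed. The share over all genes was not computed, so no excess particular to the members is shown. In RPMI lines these were BMP4 in EFO21 (9.87, the nearest line at 7.21), INHBB in PEO1 (9.01 and 8.09), BMP2 in OVCAR2 (7.80 and 6.77), and, on the low side, ID1 (7.90 and 9.59) and ID3 (6.46 and 8.33) in COLO720E. In DMEM lines they were GREM1 in CH1 (10.20 and 7.51), BMP6 in TYKNU (7.95 and 6.70), SMAD9 in SKOV3 (7.06 and 6.44) and ACVR1B in OAW42 (8.57 and 7.97). In DMEM/F12 lines BMP2 in OV7 stood apart (8.31 and 6.87).

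The other 6 were in OVCA420 and OV56, each with an array that stood apart over all genes. In OVCA420 LEFTY1 (7.35 and 6.91) and LEFTY2 (7.35 and 6.96) were high and SMAD5 low (6.91 and 8.05). In OV56 INHA was high (6.75 and 6.12) and SMAD2 (7.28 and 9.03) and SMAD4 (7.99 and 9.38) low. For LEFTY1, LEFTY2 and INHA the array that stood apart read higher than the other array of its line, and for SMAD2, SMAD4 and SMAD5 lower. Whether RNA quality has a part in these values was not tested.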

How the results depend on the processing

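No called difference changed direction under any alternative. Of the 39 members, 13 changed the sign of rho with the EMT score under at least 1 alternative, none of them called, with a rho of -0.151 to 0.131 over all lines. Among these were BMP2 (-0.084 to 0.254), BMP5 (-0.254 to 0.112), BMP6 (-0.114 to 0.067) and INHBA (-0.214 to 0.039). With the EMT score, 1 member lay above 0.5 by Pearson's r, under further quantile normalisation and without the 3 arrays that stood apart, against 0 in the report. None (0) lay below -0.5 under the same normalisation, without those arrays and without the 2 farthest lines, against 1. With every line centred on its base medium 1 member passed the adjusted p, 13 genes rose and 80 fell, against 0, 24 and 123. Without those 3 arrays 313 genes lay above 0.5 and 37 rose, against 189 and 24, and without the 2 farthest lines 2 rose and 40 fell. Using 1 array per line, leaving out either replicate number, members above 0.5, below -0.5 and past the adjusted p each ranged from 0 to 1, genes above 0.5 from 184 to 340, and genes that rose from 21 to 44. For SKOV3 against PEO1, 10 members were higher without the 3 arrays, against 6. With no minimum fold 1625 genes were higher and 1518 lower, against 975 and 1003. Leaving out single arrays gave 4 to 5 members higher and 4 lower. DMEM against RPMI gave 2 genes with the line as a random block, against 0. The cause of these shifts was not tested. With the replicate number as a block, the lines differed in 35 members and 11917 genes, and SKOV3 was higher in 968 genes and lower in 1000. Without it these were 35, 12069, 975 and 1003, and the block changed no call of a member. For single genes and lines 511 values stayed on their side of the threshold, 21 lost the call, 5 gained it and 5 counts moved. Signal close to that of silent genes limits NODAL, BMP5 and BMPR1B.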
